A study of Homo sapiens with 4 samples.

Results

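The leukocyte immunoglobulin-like receptors (LILR) were examined as a family in THP1 cells, a human cell line of monoblastic acute myeloid leukemia. Members were 10 genes (LILRA1, LILRA2, LILRA3, LILRA5, LILRA6, LILRB1, LILRB2, LILRB3, LILRB4 and LILRB5), chosen by the gene name that the array files give to each non-control probe. They were covered by 12 of the 34127 non-control probes on the array, and by 10 of the 27193 gene names. The cells had been transfected once with 30 nM miR-511-5p mimic (miR-511 mimic) or with 30 nM negative control #1 mimic (control mimic), a synthetic RNA used as the reference, and RNA was harvested on day 2. All cells were kept in medium with low serum after transfection. There were 2 experiments, each with 1 single-dye whole genome array per treatment, which made 4 arrays, and THP1 is 1 cell line. The comparison addressed which transcripts differ in monoblasts that received miR-511.

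LILR proteins are receptors of the immunoglobulin superfamily on monocytes, macrophages, dendritic cells and other leukocytes, and they are encoded side by side in the leukocyte receptor complex on chromosome 19. The inhibitory members, LILRB1 to LILRB5, carry immunoreceptor tyrosine-based inhibitory motifs in their cytoplasmic tails, which recruit phosphatases such as SHP-1 and dampen activating signals. The activating members, LILRA1, LILRA2, LILRA5 and LILRA6, have short tails and signal through the adaptor FCER1G, while LILRA3 lacks a membrane anchor and is secreted. Several members bind HLA class I molecules.

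The added small RNA and a few probes are printed here because the values below depend on which letters were probed. The mature miR-511-5p sequence, from RefSeq (GRCh38.p14, chr10:17845122-17845142, plus strand), has its seed, bases 2 to 8, in capitals.

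miR-511-5p: gUGUCUUUugcucugcaguca

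The letters that pair with this seed, AAAGACA, searched on the strand of the probe as printed, were in 0 of the 12 LILR probes and in 331 of all 34127 probes (0.97%). A probe covers only a small stretch of a transcript, and the remainder of the LILR transcripts was not analysed here.

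The LILR genes resemble each other closely, so the probes were set against each other. Capitals mark the longest run of at least 12 bases that a probe shares with another probe of the family, and LILRA4, a family relative outside the 10 genes, is included because its probe shares the longest such run.

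LILRB3 A_23_P368711: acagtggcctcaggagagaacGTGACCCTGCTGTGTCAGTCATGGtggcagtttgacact

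LILRA4 A_23_P90497: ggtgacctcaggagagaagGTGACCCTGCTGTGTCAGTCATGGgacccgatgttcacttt

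LILRA3 A_23_P79094: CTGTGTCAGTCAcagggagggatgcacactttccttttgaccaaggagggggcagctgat

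LILRA2 A_23_P142205: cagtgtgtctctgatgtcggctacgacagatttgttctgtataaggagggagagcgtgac

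LILRA1 A_24_P348989: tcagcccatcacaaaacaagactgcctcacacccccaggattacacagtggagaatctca

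The LILRB3 and LILRA4 probes shared 47 of 58 aligned bases (81.0%), with an unbroken run of 24 bases. This was the only pair in which a LILR probe shared a run of 20 or more bases with any other probe of the array. The LILRA3 probe held 12 bases of the same run, and the LILRA2 and LILRA1 probes shared no run of 12 bases with another LILR probe. Probes were set against probes only, not against LILR transcripts, so a probe without a shared run may still match another member. Among the probes not printed, A_32_P70158 of LILRB3 and the LILRB5 probe shared a run of 18 bases and 32 of 46 aligned bases. The LILRB2 and LILRB5 probes shared a run of 12 bases, and the LILRB1 and LILRB2 probes 35 of 43 aligned bases. How far a transcript of 1 member was captured by the probe of another was not tested.

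By the hg19 coordinates in the files, the LILR probes lay on chromosome 19 in separate stretches of opposite strand. The minus-strand stretch, chr19:54720773-54822777, held 7 probes of 6 genes (LILRB3, LILRA6, LILRB5, LILRB2, LILRA3 and LILRA5). The plus-strand stretch, chr19:55086794-55181068, held 5 probes of 4 genes (LILRA2, LILRA1, LILRB1 and LILRB4). The LILRA1 probe, 60 bases long, was placed over chr19:55111992-55112199, a span longer than the probe itself, so that it joins separate pieces of the gene. Whether a probe lies in coding sequence or in an untranslated region was not analysed here.

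LILR transcripts were detected for 7 of the 10 genes. A probe counted as detected where the scanner software marked it well above background. By that mark 8 of the 12 probes were detected on all 4 arrays, and the other 4 on none. The probes without detection were those of LILRA5 and LILRA6, both activating receptors, that of LILRB5, and A_32_P70158 of LILRB3. Their processed intensities ran from 1.90 to 10.4 over the 4 arrays, and no difference between treatments is given for them. Of the activating members 2 of 4 were detected, of the inhibitory members 4 of 5, and the soluble LILRA3 was detected as well. LILRB3 was counted by probe A_23_P368711 alone, the probe that shares the long run with LILRA4. All 4 genes of the plus-strand stretch were detected, against 3 of 6 genes of the minus-strand stretch.

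The cells carried the markers of their lineage. Of 11 myeloid or monoblastic marker genes with a probe, 10 were detected on all 4 arrays, among them SPI1, CEBPA, CD33 and ELANE. None of 4 epithelial markers was detected on any array. Among markers of other blood cells, 1 of 5 T cell, 1 of 4 NK cell, 4 of 5 B cell and 3 of 4 erythroid genes were detected on all 4 arrays. None of these markers passed the test between treatments, and the part of other cells in the LILR values was not tested. Per array, 64.8% to 69.3% of probes had signal well above background, and no spot was saturated.

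Levels below are quantile-normalized log2 intensities, and log2FC is the mean of the miR-511 mimic arrays minus the mean of the control mimic arrays. The 8 detected LILR probes were part of a fit to 22638 probes with limma, whose moderated test was read at an unadjusted p-value of 0.05. In that fit 1 of the 8 LILR probes passed, against 498 of all tested probes (2.20%). With the experiment as a block the whole-array count was 894 (3.95%), and again 1 LILR probe passed. No probe on the array passed after Benjamini-Hochberg adjustment with limma, the smallest adjusted p being 0.79, and the adjusted p of each LILR probe was 1.00. For 1 probe taken alone, the smallest two-sided p that exact permutation of these 4 arrays allows is 0.333.

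**Figure D1:**
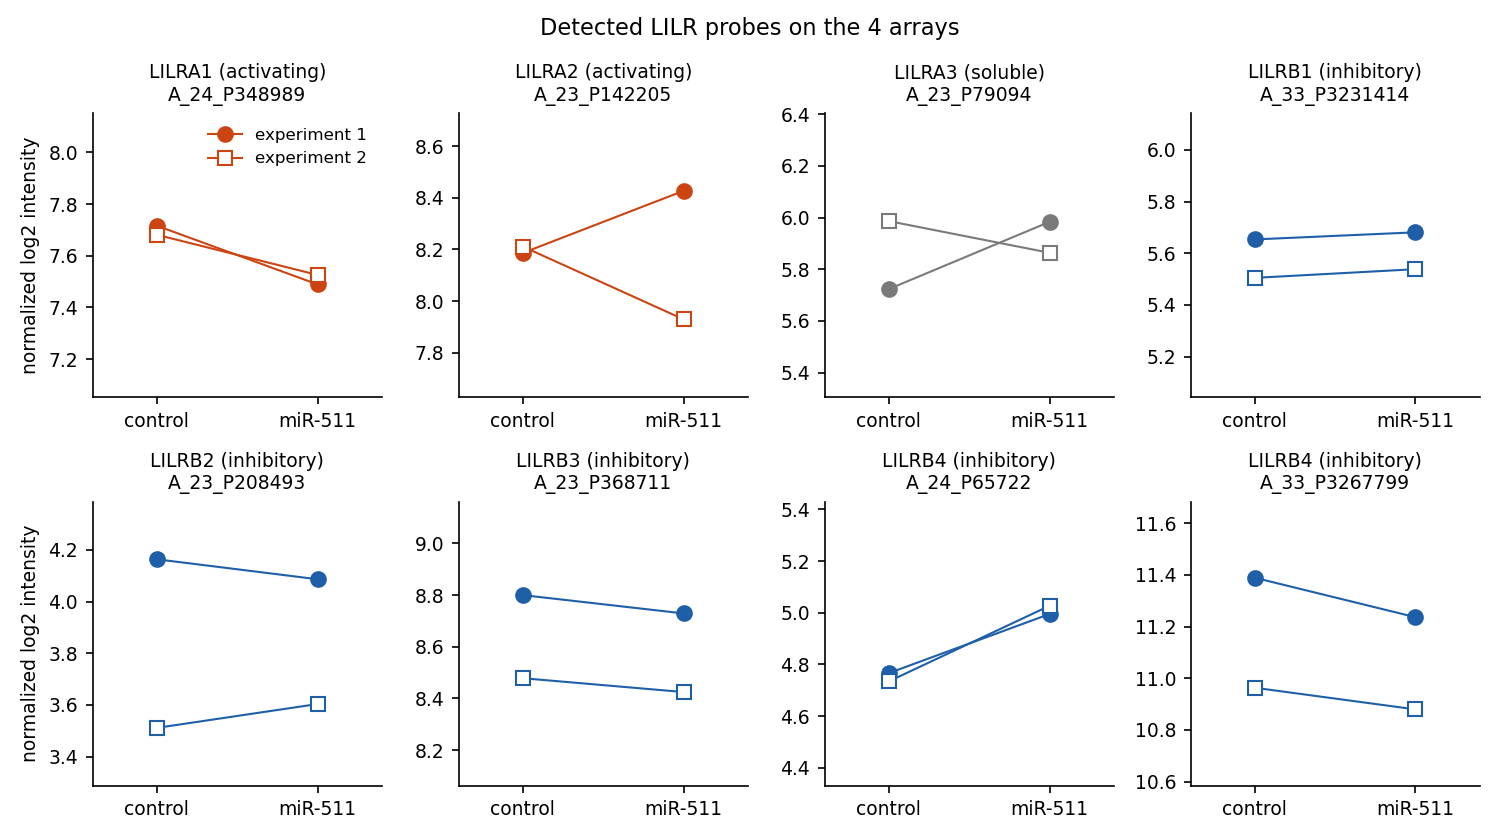
Quantile-normalized log2 intensity (y axis) of the 8 detected LILR probes under control mimic and miR-511 mimic (x axis), with a line joining the arrays of experiment 1 (filled circles) and of experiment 2 (open squares). Every panel spans the same number of log2 units around its own centre. The treatments do not overlap for LILRA1 and for LILRB4 A_24_P65722, while for LILRB1, LILRB2, LILRB3 and LILRB4 A_33_P3267799 the experiments lie apart.

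LILRA1, an activating receptor, was lower with miR-511 in both experiments, by an amount that did not pass the test. In experiment 1 its probe A_24_P348989 read 7.49 with miR-511 mimic and 7.72 with control mimic. In experiment 2 it read 7.53 and 7.68. Both miR-511 arrays were below both control arrays. The log2FC was -0.19 (standard error 0.090, 95% interval -0.44 to 0.055), with a limma p of 0.098 and an adjusted p of 1.00.

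LILRA2, an activating receptor of monocytes and neutrophils, went in opposite directions in the experiments. Probe A_23_P142205 read 8.43 with miR-511 mimic and 8.19 with control mimic in experiment 1, and 7.93 and 8.21 in experiment 2. The control arrays were close to each other, and the miR-511 arrays lay on either side of them. The log2FC was -0.021 (standard error 0.19, 95% interval -0.55 to 0.51).

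LILRA3, the secreted member, was also without a common direction. Probe A_23_P79094 read 5.98 with miR-511 mimic and 5.72 with control mimic in experiment 1, and 5.86 and 5.99 in experiment 2. The miR-511 arrays lay between the control arrays. The log2FC was 0.069 (standard error 0.13, 95% interval -0.30 to 0.43).

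LILRB1, an inhibitory receptor for HLA class I molecules, showed the smallest differences within an experiment among the detected members. Probe A_33_P3231414 read 5.68 with miR-511 mimic and 5.65 with control mimic in experiment 1, and 5.54 and 5.50 in experiment 2. The treatments overlapped, since experiment 1 was above experiment 2 under either treatment. With normexp background correction they did not, the miR-511 arrays reading 6.84 and 6.83 and the control arrays 6.77 and 6.77. The log2FC was 0.030 (standard error 0.11, 95% interval -0.28 to 0.34). The interval with the experiment as a block was -0.22 to 0.28.

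LILRB2, an inhibitory receptor that binds HLA class I molecules and angiopoietin-like proteins, differed little between treatments against a wide interval. Probe A_23_P208493 read 4.09 with miR-511 mimic and 4.16 with control mimic in experiment 1, and 3.60 and 3.51 in experiment 2. These values were near the detection limit. The processed intensities ran from 11.1 to 20.1, while an undetected LILR probe reached 10.4. The gap between the experiments was larger than that between the treatments. The log2FC was 0.0075 (standard error 0.30, 95% interval -0.80 to 0.82). With the experiment as a block the interval was -0.29 to 0.30.

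LILRB3, an inhibitory receptor of myeloid cells, was slightly lower with miR-511 in both experiments by its only detected probe. The other probe, A_32_P70158, was not detected on any array. Probe A_23_P368711, whose letters are printed above, read 8.73 with miR-511 mimic and 8.80 with control mimic in experiment 1, and 8.42 and 8.48 in experiment 2. The log2FC was -0.062 (standard error 0.18, 95% interval -0.55 to 0.42). The fit with the experiment as a block gave a standard error of 0.077 and an interval of -0.31 to 0.18. The treatments overlapped. The LILRA4 probe that shares the 24-base run read 8.12 and 8.17 in experiment 1 and 7.83 and 8.08 in experiment 2, so that it too was lower with miR-511 in both experiments (log2FC -0.15, standard error 0.14).

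LILRB4, an inhibitory receptor of monocytic cells that binds apolipoprotein E, was measured by 2 detected probes, and these went in opposite directions. Probe A_24_P65722 (chr19:55181009-55181068) read 4.99 with miR-511 mimic and 4.77 with control mimic in experiment 1, and 5.03 and 4.73 in experiment 2. Both miR-511 arrays were above both control arrays. A_24_P65722 was the LILR probe that passed the unadjusted threshold. Its log2FC was 0.26 (standard error 0.089, 95% interval 0.015 to 0.51), which is 1.20-fold, with a limma p of 0.042 and an adjusted p of 1.00. The probe was dim, with processed intensities from 26.2 to 35.1, against 2006 to 2750 for A_33_P3267799.

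Probe A_33_P3267799 of LILRB4 (chr19:55179744-55179803) read 11.24 with miR-511 mimic and 11.39 with control mimic in experiment 1, and 10.88 and 10.96 in experiment 2. It was lower with miR-511 in both experiments, and the treatments overlapped. Its log2FC was -0.12 (standard error 0.21, 95% interval -0.70 to 0.46). The fit with the experiment as a block gave a standard error of 0.080 and an interval of -0.37 to 0.14. The miR-511 minus control difference of A_24_P65722 exceeded that of A_33_P3267799 by 0.38 in experiment 1 and by 0.38 in experiment 2, a contrast chosen after its values were seen and not tested. In the files the probes are assigned to different transcript records of LILRB4, and which transcripts each of them captured was not analysed here.

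The call on A_24_P65722 depended on the processing. It was lost with 75th percentile scaling (log2FC 0.23), with another background correction (0.12), and with a variance trend on intensity (0.26). It was also lost when any 1 of the 4 arrays was left out, where the log2FC lay between 0.24 and 0.28.

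**Figure D2:**
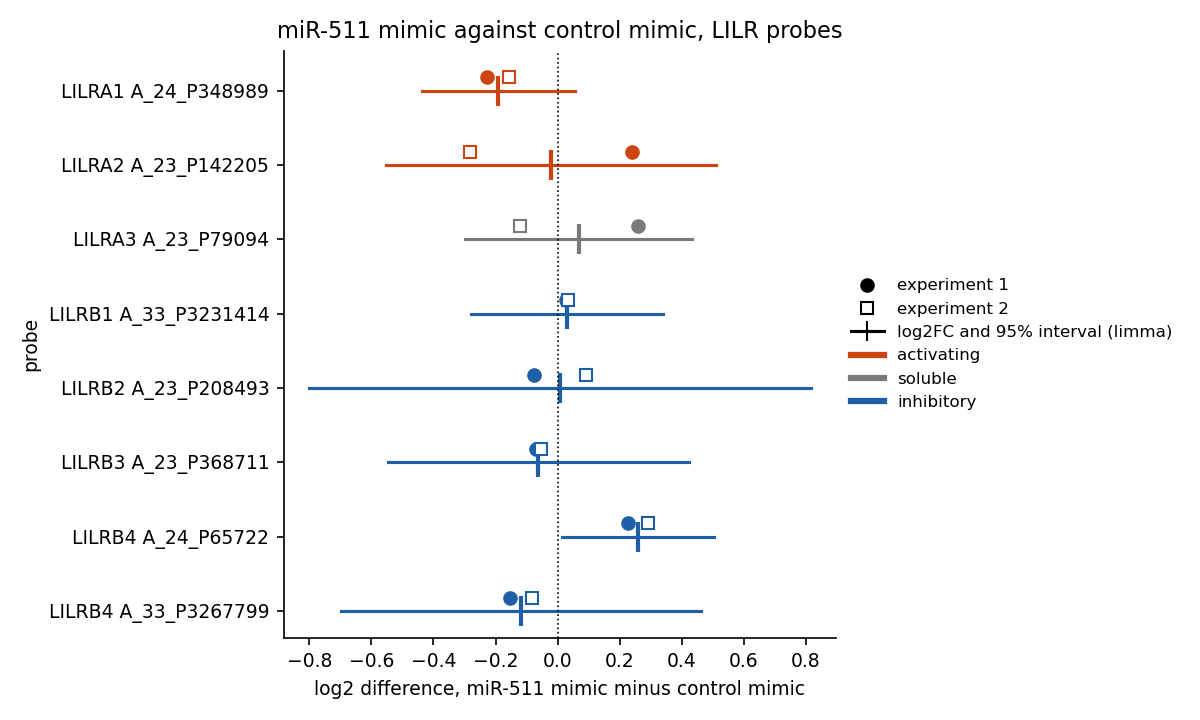
Log2 difference, miR-511 mimic minus control mimic (x axis), for the 8 detected LILR probes (y axis). Circles and squares are the differences within experiment 1 and experiment 2, and the vertical tick with its line is the limma log2FC with its 95% interval. The interval of LILRB4 A_24_P65722, from 0.015 to 0.51, is the only one that leaves out 0.

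Activating and inhibitory members were then set side by side, as a description only, since probes of a family are not replicates of a treatment. The 2 detected activating probes (LILRA1 and LILRA2) had a median log2FC of -0.11, and both were below 0. That median was -0.22 without the miR-511 array of experiment 1 and 0.0093 without that of experiment 2. The 5 detected inhibitory probes had a median log2FC of 0.0075, with 3 above and 2 below 0. That median is the value of LILRB2, whose probe was near the detection limit. With 1 array left out the inhibitory median lay between -0.22 and 0.10. With LILRB4 represented by its brighter probe alone, the inhibitory median was -0.027. With the secreted LILRA3 counted among the activating members, their median was -0.021. Over all 22638 tested probes the median log2FC was 0.0098.

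The order of the classes was not the same in the experiments. In experiment 1 the median difference was 0.0066 for the activating and -0.071 for the inhibitory probes. In experiment 2 it was -0.22 for the activating and 0.033 for the inhibitory probes. Neither class therefore kept its place relative to the other.

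Across the family, the 8 detected LILR probes were 4 higher and 4 lower with miR-511, with a median log2FC of -0.0065. The difference had the same sign in both experiments for 5 of the 8 LILR probes, against 51.0% of all tested probes. The treatments did not overlap for 2 of the 8 (LILRA1 and LILRB4 A_24_P65722), against 25.7% of all tested probes. Both shares were near those of the whole array.

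The experiments differed more than the treatments for several members. LILRB2, whose probe was near the detection limit, was higher in experiment 1 than in experiment 2 by 0.57 log2 units on average. LILRB4 A_33_P3267799 was higher by 0.39, LILRB3 by 0.31 and LILRB1 by 0.15. For these 4 probes both arrays of experiment 1 were above both arrays of experiment 2, whichever mimic the cells had received. With normexp background correction the experiments overlapped for LILRB1. It then read 6.84 (miR-511 mimic) and 6.77 (control mimic) in experiment 1, and 6.83 and 6.77 in experiment 2. LILRB2 stayed apart by less, at 6.63 and 6.58 against 6.44 and 6.50. Of all tested probes, 48.9% did not overlap between the experiments, and 26.4% were the higher in experiment 1. Of the LILR probes 4 of 8 did not overlap, each of them inhibitory and higher in experiment 1. This was not particular to inhibitory receptors. The activating LILRA2 was higher in experiment 1 by 0.24 on average, with overlap. FCER1G, TYROBP, OSCAR and SIRPB1, activating receptors or their adaptors outside the family, were higher in experiment 1 without overlap. TREM1 and TREM2, also activating receptors, went the other way without overlap. TREM1 read 6.26 and 6.27 in experiment 1, and 6.80 and 6.73 in experiment 2 (miR-511 and control mimic). TREM2 read 9.60 and 9.77, and 10.11 and 10.17. All of these genes outside the family were chosen after their values were seen. The experiments overlapped for LILRA1, LILRA2, LILRA3 and LILRB4 A_24_P65722. The average difference between them was -0.00086 for LILRA1 and 0.00012 for A_24_P65722, the probes whose treatments did not overlap. On 4 arrays a probe without overlap between treatments must overlap between experiments. The closeness of the experiments is therefore no separate result. What differed between the experiments was not tested.

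**Figure D3:**
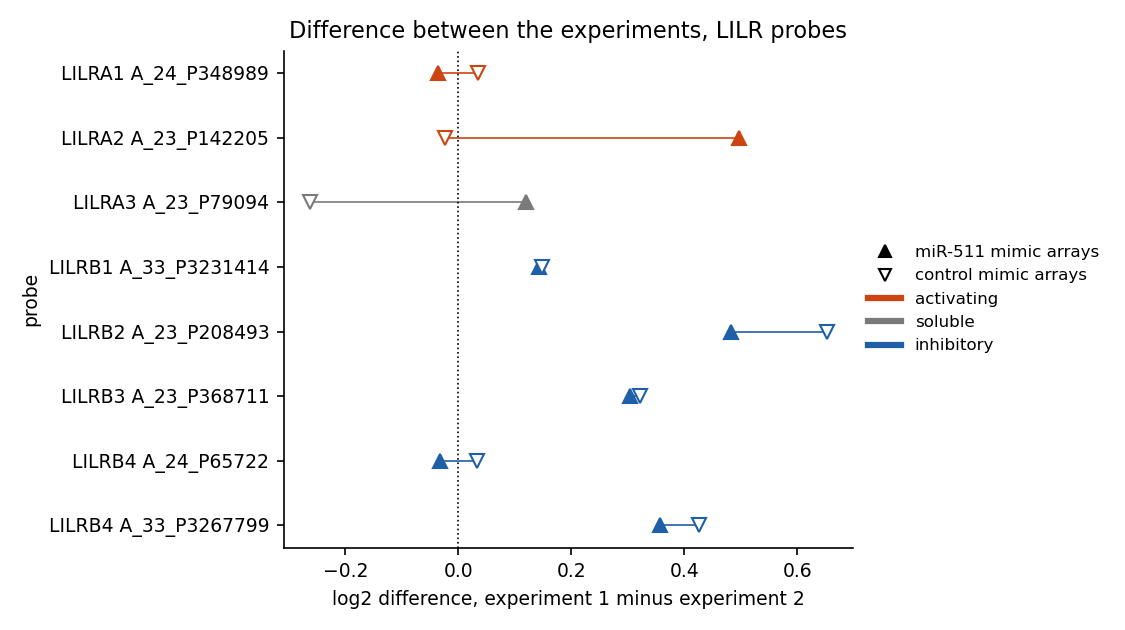
Log2 difference, experiment 1 minus experiment 2 (x axis), for the 8 detected LILR probes (y axis), shown for the miR-511 mimic arrays (filled triangles) and for the control mimic arrays (open triangles). LILRB1, LILRB2, LILRB3 and LILRB4 A_33_P3267799 lie to the right of 0 under both mimics, from 0.14 to 0.65.

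Genes that act with or resemble the LILR family gave 1 call among 4 lists, each gene being represented by its brightest probe. The call fell in the list of other paired or Fc receptors, and none in the signalling partners or ligands. Over the brightest probes of all 17996 tested genes 2.12% passed the unadjusted threshold, and 0.889% passed it in the lower direction.

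The signalling partners comprise adaptors, phosphatases and kinases, and 10 of 10 were detected on all 4 arrays. None passed with limma, either before or after adjustment, and their log2FC ran from -0.027 to 0.14 with a median of 0.020. TYROBP, the adaptor DAP12 of activating receptors, was at 15.27 ± 0.20 with miR-511 mimic and 15.14 ± 0.42 with control mimic (mean ± SD of 2 arrays). INPP5D, the phosphatase SHIP1, was at 15.20 ± 0.10 and 15.21 ± 0.057. FCER1G, the adaptor of the activating LILR members, had a log2FC of -0.014 (standard error 0.14), and PTPN6, the phosphatase SHP-1 that inhibitory motifs recruit, one of -0.027 (standard error 0.11).

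Of the 12 ligand genes 11 were tested and none passed, with a median log2FC of -0.036. B2M, the light chain of HLA class I molecules, was at 16.99 ± 0.031 with miR-511 mimic and 17.03 ± 0.0094 with control mimic. HLA-G, a ligand of LILRB1 and LILRB2, read 16.59 ± 0.063 and 16.58 ± 0.047. HLA class I genes are near-identical in sequence, and how far a probe named for HLA-G captured its relatives was not tested. APOE, the ligand of LILRB4, had a log2FC of -0.11 (standard error 0.089), and both miR-511 arrays were below both control arrays. ANGPTL2 was not detected on any array.

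Among 12 further genes of the leukocyte receptor complex 8 were tested and none passed, with a median log2FC of -0.036. LAIR1, an inhibitory receptor for collagens, read 14.23 ± 0.25 with miR-511 mimic and 14.22 ± 0.12 with control mimic. OSCAR, an activating receptor for collagens, read 9.69 ± 0.10 and 9.64 ± 0.13. The probe of LILRP2, a LILR pseudogene, was not detected on any array.

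Among 20 other paired or Fc receptors of myeloid cells 16 were tested, and 1 passed in the lower direction. This was CD300A, an inhibitory receptor with the same kind of tail motif as the LILRB members. It read 6.48 with miR-511 mimic and 6.78 with control mimic in experiment 1, and 6.434 and 7.003 in experiment 2. Both miR-511 arrays were below both control arrays. The log2FC was -0.43 (standard error 0.12, 95% interval -0.76 to -0.11), with a limma p of 0.021 and an adjusted p of 1.00. CD300A has 2 probes on the array, and only the brighter was read here. Its call was not tried under the other processing settings. CD33, an inhibitory sialic acid receptor, had a log2FC of 0.079 (standard error 0.093), and PILRB, an activating paired receptor, one of -0.096 (standard error 0.17). The median of the 16 genes was 0.016.

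**Figure D4:**
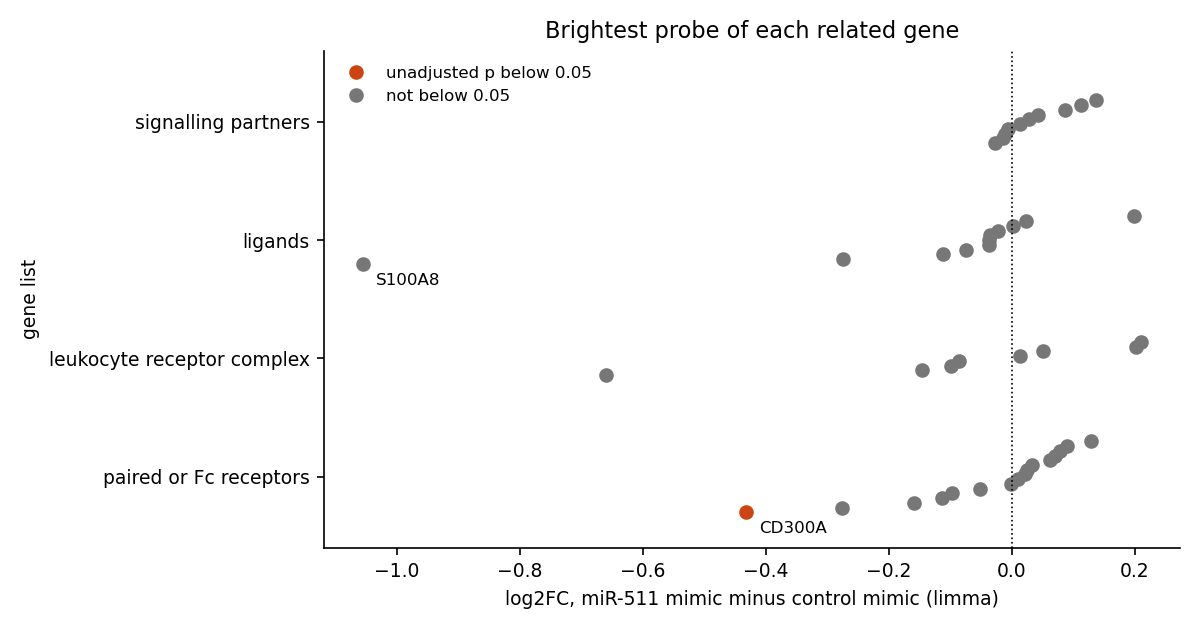
Limma log2FC, miR-511 mimic minus control mimic (x axis), of the brightest probe of each tested gene in 4 lists of genes that act with or resemble the LILR family (y axis). Each point is 1 gene. CD300A, at -0.43, is the point past the unadjusted threshold, and S100A8, at -1.05, is farther from 0 without passing it.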

How the data were processed

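Transcripts of THP1 cells were measured on 4 single-dye Agilent whole genome arrays, 2 with miR-511 mimic and 2 with control mimic. The deposited scanner files hold processed intensity per spot, which the authors made with Agilent Feature Extraction (10.5.1.1 per the labels, 10.7.3.1 per the file headers): background-subtracted, detrended, dim spots being set to a surrogate value, without normalization between arrays. A deposited table of log2 values, which the authors had quantile-normalized, served as an alternative. Other flags came from the same files. The annotation build is hg19.

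Outlier spots (232 to 301 per array) and control spots were left out. Log2 intensities were quantile-normalized, spots of a probe averaged, and probes tested with limma (version 3.58.1, R 4.3.3) where they were well above background in both experiments for 1 treatment or more. This gave 22638 probes. P-values were adjusted by Benjamini-Hochberg over all of them. The moderated test had 4.14 degrees of freedom. Arrays of the same experiment share that number in the labels, and their deviations from the treatment means correlated at 0.27. The fit with the replicate block is therefore given as well.

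All probes of the 10 genes were named. From 4 lists of related genes, those past the unadjusted threshold were named, and, where at most 1 passed, the 2 of highest level. FCER1G, PTPN6, APOE, ANGPTL2, LILRA4, LILRP2, S100A8, S100A9, SIRPB1, TREM1 and TREM2 were named besides. Members and lists were chosen with earlier results of these data known. Of the 12 LILR probes, 10 matched an accession in a RefSeq table (GRCh38.p14), all with the symbol of the files, and both LILRB4 probes matched none. The code was tested on simulated data. The number of arrays limits the precision.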

Additional observations from a re-analysis of the deposited data

How the results depend on the processing

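Other settings were tried for scaling, background correction, the filter, marked spots, the source table, the pairing, the variance trend, the test and the set of arrays. The class of LILRA3 and the choice of LILRB4 probe were added after seeing the data. The count of all probes past the unadjusted threshold, 498, became 265 with normexp background correction, 1029 with no filter on dim probes, 894 with the replicate block (paired by experiment), 285 with the intensity trend, and 709 to 1440 with 1 array left out. The count of LILR probes, 1, became 0 with 75th percentile scaling, normexp, the intensity trend and each array left out, and 2 with no variance moderation. The last is the same fit of each probe on the 4 arrays with its own variance alone, and it is not the rule of the study's methods. After Benjamini-Hochberg adjustment none passed under any of these.

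LILRB4 A_24_P65722 had a log2FC of 0.23 with 75th percentile scaling, 0.12 with normexp, 0.26 with the intensity trend and 0.24 to 0.28 with 1 array left out, none past the threshold. LILRA1, at -0.19, passed it only with no variance moderation. LILRB2 turned to -0.037 with 75th percentile scaling and to -0.0079 with normexp.

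With 1 array left out, where the lone array is assumed to vary like the others, the log2FC ran from -0.27 to 0.23 for LILRA2, from -0.063 to 0.20 for LILRA3, from -0.044 to 0.10 for LILRB1, from -0.32 to 0.33 for LILRB2, from -0.22 to 0.099 for LILRB3 and from -0.33 to 0.095 for LILRB4 A_33_P3267799. The inhibitory median ran from -0.22 to 0.10 and the activating median from -0.22 to 0.0093. The causes were not tested. The replicate block changed no LILR call.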

Other observations

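S100A8 and S100A9, which pair as calprotectin and stood on the ligand list, went in opposite directions, and neither passed the test. S100A8 read 11.58 with miR-511 mimic and 13.53 with control mimic in experiment 1, and 13.40 and 13.56 in experiment 2. The miR-511 array of experiment 1 was far below the other 3 arrays, which lay close to each other. The limma log2FC was -1.05 (standard error 0.64), with an adjusted p of 1.00. S100A9 was higher with miR-511 by 0.14 in experiment 1 and by 0.26 in experiment 2, with a log2FC of 0.20 (standard error 0.095). The genes were singled out after their values were seen.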
